A study of Mus musculus with 8 samples.

Results

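The mitochondrially encoded genes are the genes carried on the mitochondrial chromosome itself. They were taken as every gene identifier whose symbol starts with mt-, and 37 of the 37991 gene identifiers in the count table met that rule. Of these, 13 encode proteins, 2 encode ribosomal RNA (rRNA) and 22 encode transfer RNA (tRNA). Gene lengths ranged from 204 to 1824 bases for the protein genes, from 955 to 1582 bases for the rRNA genes and from 59 to 75 bases for the tRNA genes. The protein gene mt-Nd6 and 8 tRNA genes lie on the light strand, and the other members lie on the heavy strand.

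Both strands of the small circular mitochondrial genome are transcribed as long RNAs, which are cut apart largely where tRNAs lie between the other genes. The proteins are subunits of respiratory chain complexes I, III and IV and of the ATP synthase, complex V, while the mitochondrial ribosome that makes them holds both rRNAs. Most mitochondrial mRNAs carry short poly(A) tails, which also complete stop codons that the DNA leaves unfinished, and mt-Nd6 mRNA is known to lack such a tail in mammals.

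RNA was sequenced from mouse bone marrow cells of strain C57BL/6J. For each sample 24000 Flt3- LSK cells were sorted, a fraction that holds blood stem cells and early progenitors. The wild-type samples (WT) carried floxed Runx1 (Runx1f/f), a gene for a blood transcription factor, and those labelled Mut were given as lacking Runx1 function. The sources used here do not give the deleting Cre, the deleted part of the gene or the ages of the mice. Synthetic ERCC transcripts were spiked into the purified RNA of both groups. Poly(A)-selected libraries (here mRNA libraries) and total RNA libraries were then made, each kind from 2 WT and 2 Mut-labelled samples. The labels do not say whether samples came from separate animals, so p-values reflect the spread between these samples alone, and that spread may be technical.

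The mRNA libraries held 35096252 to 37924699 counts assigned to genes, and the total RNA libraries held 967694 to 1218437, because nuclear-encoded rRNA took 93.3 to 94.5% of all counts there. A floor of 3 counts equalled 0.0791 to 0.0855 CPM (gene counts scaled to an equal library total) in the mRNA libraries and 2.46 to 3.10 CPM in the total RNA libraries. Floors cover counting error only. Runx1 was higher in the Mut-labelled libraries, against the label. Its level was 200, 207, 749 and 941 CPM in WT 1, WT 2, Mut-labelled 1 and Mut-labelled 2 of the mRNA libraries, and 228, 234, 808 and 888 CPM in the total RNA libraries. Counts summed over all exons cannot check a deletion of unknown extent, so the groups are called WT and Mut-labelled throughout. Of the stem cell markers of the sorted fraction, Kit stood at 883 to 1099 CPM, Cd34 at 594 to 725 CPM and Ly6a at 23.7 to 38.5 CPM in the mRNA libraries.

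The ends of the protein genes show where a poly(A) tail finishes the coding sequence. The last 30 bases of 6 genes are printed 5′ to 3′ on the gene's own strand, from GENCODE M21 transcripts (GRCm38), with the encoded letters of the stop codon in capitals. The first 3 are the members that end in a lone T and the other 3 are members with a complete stop codon, chosen because the results below turn on them.
mt-Cytb: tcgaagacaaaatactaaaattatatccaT
mt-Nd4: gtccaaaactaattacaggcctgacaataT
mt-Co3: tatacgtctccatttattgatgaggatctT
mt-Co1: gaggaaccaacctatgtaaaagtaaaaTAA
mt-Nd5: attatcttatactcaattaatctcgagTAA
mt-Nd6: tttattattatcgagattactcgagatTAA
Of the 13 protein genes, 3 had an incomplete stop codon in these transcripts. The last 14 bases of mt-Nd5 and mt-Nd6 are reverse complements of each other, so both genes cover the same base pairs on opposite strands there. The sources used here do not say whether the counting used strand, and reads from that overlap cannot be assigned to one gene or the other. If strand was not used, RNA from the opposite strand anywhere along mt-Nd6 would also count for mt-Nd6. The same holds for the other members, and its part in the values below was not tested.

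The mitochondrial genes took a larger share of gene counts in total RNA than after poly(A) selection, and their makeup was of a different kind. In the mRNA libraries they made up 1.24, 1.22, 1.09 and 1.001% of gene counts in WT 1, WT 2, Mut-labelled 1 and Mut-labelled 2. In the total RNA libraries they made up 6.73, 6.38, 6.98 and 6.70%, which was 5.21 to 6.70 times the share in the mRNA library of the same name. The direction turned when nuclear-encoded rRNA and ERCC counts were kept in the total. Of all counts, the mitochondrial genes made up 1.23, 1.22, 1.08 and 0.997% in the mRNA libraries. In total RNA they made up 0.388, 0.347, 0.382 and 0.441% of all counts. Protein genes led the mRNA libraries and the rRNA genes led the total RNA libraries, with no overlap between the kinds.

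The 2 rRNA genes, mt-Rnr1 for the small and mt-Rnr2 for the large ribosomal subunit, made up 4.95, 6.15, 6.56 and 7.86% of mitochondrial counts in the mRNA libraries, in the same order of samples. In the total RNA libraries they made up 91.2, 90.7, 92.3 and 91.7%. The protein genes thus held 19.2, 15.2, 14.2 and 11.7 counts per rRNA gene count after poly(A) selection, and 0.0966, 0.102, 0.0835 and 0.0904 in total RNA. The tRNA genes held 3110 counts over the 4 mRNA libraries and 79 over the 4 total RNA libraries, against 1574886 and 24025 for the protein genes.

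**Figure D1:**
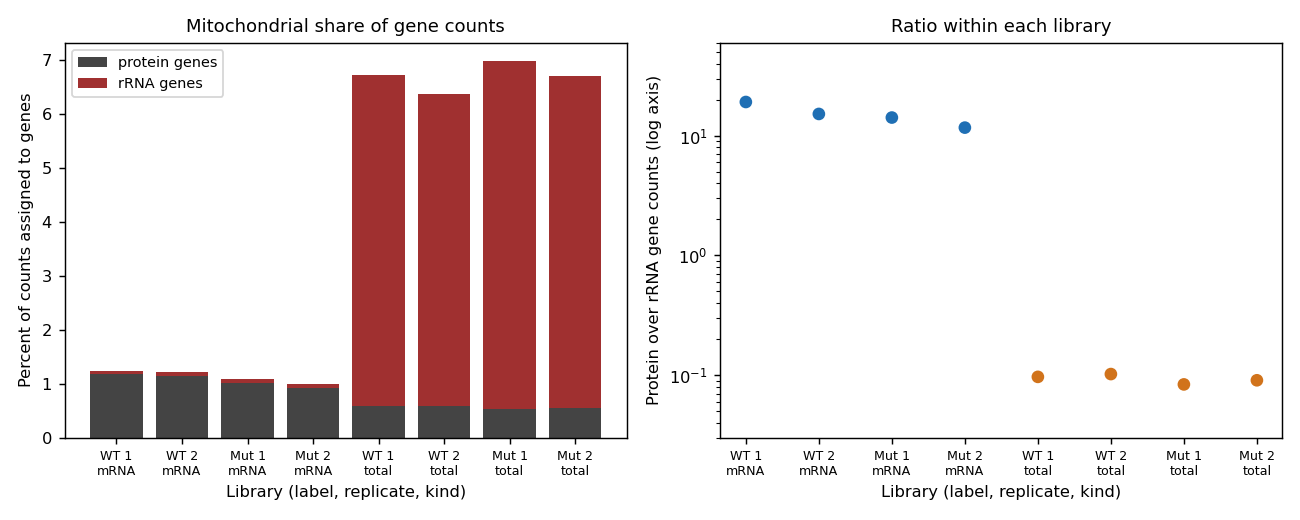
Left, percent of counts assigned to genes that fell on mitochondrial protein genes (grey) and rRNA genes (red) in each of the 8 libraries; the tRNA genes are too few in counts to draw. Right, protein gene counts divided by rRNA gene counts in each library on a log axis, with 11.7 to 19.2 in the mRNA libraries (blue) and 0.0835 to 0.102 in the total RNA libraries (orange).

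The rRNA genes differed between the kinds of library by far more than the libraries of a kind differed among themselves. After TMM scaling, which sets libraries to an equal effective size, mt-Rnr1 stood at 239, 289, 295 and 318 CPM in the mRNA libraries and at 24910, 23115, 25980 and 24291 CPM in total RNA. The level of mt-Rnr2 was 366, 457, 421 and 485 CPM in the mRNA libraries and 35832, 33939, 39822 and 37260 CPM in total RNA. Both genes lay higher in every total RNA library than in any mRNA library.

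Over all 8 libraries mt-Rnr1 was higher in total RNA by a log2 change of 6.60 (SE 0.16, edgeR adjusted p = 3.62e-10), a 96.9-fold difference. The log2 change of mt-Rnr2 was 6.57 (SE 0.17, edgeR adjusted p = 5.94e-10), a 95.3-fold difference. Both rRNAs kept nearly the same proportion in either kind: mt-Rnr2 held 1.53, 1.58, 1.43 and 1.52 counts per mt-Rnr1 count after poly(A) selection and 1.44, 1.47, 1.53 and 1.53 in total RNA. A gene was called at an edgeR adjusted p under 0.05, and 15.1% of the 17416 genes tested were called between the kinds, 7.49% higher and 7.64% lower in total RNA. Of the mitochondrial genes, 27 passed the filter on low counts in this comparison, and 2 were called higher and 5 lower in total RNA.

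All 5 called lower were protein genes with over 500 counts in the total RNA libraries together, and they led with mt-Co1, the catalytic core of complex IV. The level of mt-Co1 was 4972, 4936, 4486 and 4297 CPM in the mRNA libraries and 2310, 2134, 2035 and 2190 CPM in total RNA, with no overlap. Its log2 change was -0.94 (SE 0.11, edgeR adjusted p = 4.5e-04). For mt-Cytb, the only mitochondrially encoded subunit of complex III, the levels were 2526, 2495, 1994 and 1799 CPM and 1157, 1207, 1022 and 1026 CPM. The log2 change of mt-Cytb was -0.82 (SE 0.11, edgeR adjusted p = 8.29e-04).

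The other 3 were membrane subunits of complex I. The level of mt-Nd1 was 1504, 1288, 1409 and 1102 CPM in the mRNA libraries and 684, 686, 697 and 635 CPM in total RNA (log2 change -0.81, SE 0.12, edgeR adjusted p = 0.00217). The level of mt-Nd2 was 600, 571, 554 and 450 CPM against 348, 317, 348 and 270 CPM (log2 change -0.59, SE 0.12, edgeR adjusted p = 0.0106). The level of mt-Nd4 was 634, 554, 543 and 446 CPM against 327, 338, 350 and 330 CPM (log2 change -0.52, SE 0.11, edgeR adjusted p = 0.0119). For each of these genes every mRNA library lay above every total RNA library.

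The calls of mt-Nd2 and mt-Nd4 were lost in some fits without 1 sample, while their log2 changes stayed of like size. Over the fits without 1 sample each, the log2 change ran from -0.62 to -0.58 for mt-Nd2 and from -0.58 to -0.47 for mt-Nd4. Without both libraries of WT 1, WT 2 or Mut-labelled 1, the edgeR adjusted p of mt-Nd2 was 0.0808, 0.059 or 0.0517. Without those of WT 1, Mut-labelled 1 or Mut-labelled 2, that of mt-Nd4 was 0.139, 0.0989 or 0.0503. The calls of mt-Co1, mt-Cytb, mt-Nd1 and both rRNA genes held without any one sample. ERCC counts equalled 0.651, 0.313, 0.891 and 0.381% of gene counts in WT 1, WT 2, Mut-labelled 1 and Mut-labelled 2 of the mRNA libraries. In total RNA they equalled 0.414, 0.564, 0.772 and 1.36%. Replicates of a group thus differed in ERCC share, which limits every result with ERCC scaling given here. When libraries were scaled by their ERCC counts, the median log2 change of all genes moved from -0.10 to -0.80. Both rRNA genes were still called higher and 0 protein genes were called lower. The log2 changes of the protein genes called with TMM scaling then ran from -1.63 for mt-Co1 to -1.17 for mt-Nd4.

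The other 2 complex I subunits with over 500 counts in total RNA were nearer to equal between the kinds. The level of mt-Nd5 was 1087, 1269, 930 and 1080 CPM after poly(A) selection and 849, 963, 853 and 932 CPM in total RNA, with overlapping ranges and a log2 change of -0.11 (SE 0.11, edgeR adjusted p = 0.556). The level of mt-Nd6, the light-strand gene, was 268, 253, 249 and 215 CPM and 186, 164, 187 and 181 CPM, with no overlap. Its log2 change of -0.29 (SE 0.10) had an edgeR adjusted p of 0.0832, and of 0.01 when same-named libraries were paired as a block.

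As a share of protein gene counts, mt-Nd5 took 9.15 to 11.5% of the mRNA libraries and 14.5 to 16.7% of the total RNA libraries. The share of mt-Nd6 was 2.23 to 2.45% and 2.83 to 3.40%. That of mt-Co1 was 42.9 to 45.7% and 36.7 to 39.4%. The share of mt-Nd4 was 4.75 to 5.46% and 5.58 to 6.36%. The ranges of the 2 kinds did not overlap for these 4 genes, and they overlapped for mt-Nd2, mt-Cytb and mt-Nd1. In 4 of 4 pairs of same-named libraries the share was higher in total RNA for mt-Nd5, mt-Nd6, mt-Nd4 and mt-Nd2, and lower for mt-Co1 and mt-Cytb. An exact sign-flip test gave p = 0.375 for mt-Nd1 and p = 0.125 for each of the other 6, the smallest that 4 pairs allow, before any adjustment over the 7 genes compared.

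**Figure D2:**
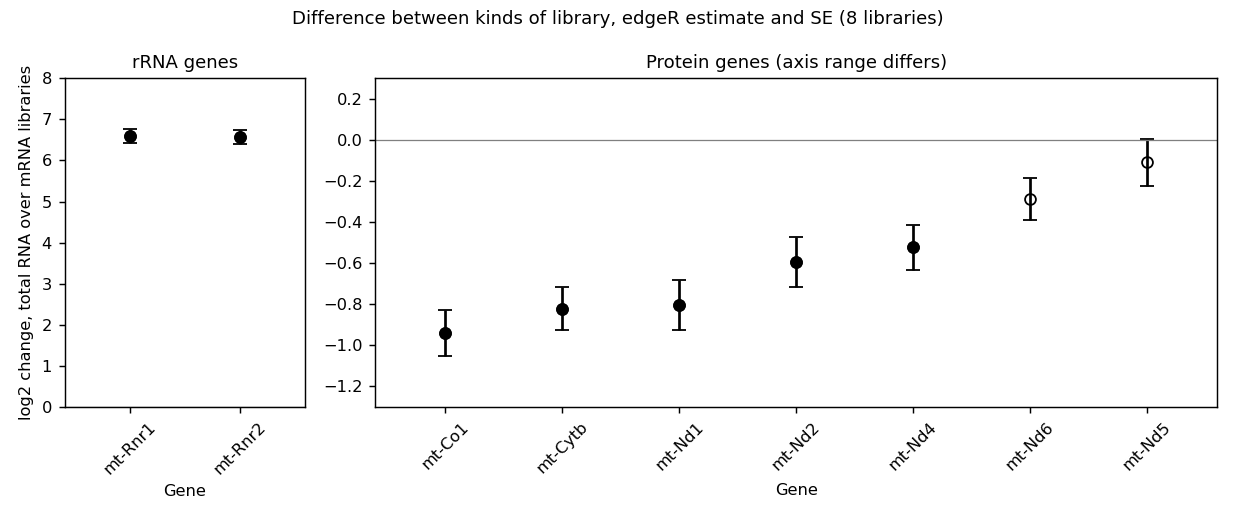
The log2 change of total RNA over mRNA libraries (y axis; the panels differ in range) for both rRNA genes and the 7 protein genes with over 500 counts in total RNA; points are edgeR estimates over 8 libraries and bars are 1 SE. Filled points passed an adjusted p under 0.05, and the protein genes run from -0.94 for mt-Co1 to -0.11 for mt-Nd5.

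Levels per kb of gene length put the protein genes in the same order at the top in both kinds. In the mRNA libraries mt-Co1 stood at 3027 ± 259 CPM per kb (SD, n = 4), mt-Cytb at 1930 ± 344 and mt-Nd1 at 1387 ± 198, followed by mt-Nd5 at 599 ± 79.7, mt-Nd2 at 525 ± 69.8, mt-Nd6 at 475 ± 49.0 and mt-Nd4 at 396 ± 61.1. The spread covers WT and Mut-labelled libraries together. The interval of 1 SD of mt-Co1 stood clear of the rest, those of mt-Cytb and mt-Nd1 were next to each other without overlapping, and those of neighbours from mt-Nd5 down to mt-Nd4 overlapped. In total RNA mt-Co1 stood at 1403 ± 90.5, mt-Cytb at 965 ± 95.3 and mt-Nd1 at 706 ± 29.3 CPM per kb. Below them came mt-Nd5 at 493 ± 36.1, mt-Nd6 at 346 ± 17.5, mt-Nd2 at 309 ± 35.1 and mt-Nd4 at 244 ± 5.02. The rRNA genes stood at 298 ± 31.2 (mt-Rnr1) and 273 ± 29.5 (mt-Rnr2) in the mRNA libraries and at 25722 ± 936 and 23191 ± 1198 CPM per kb in total RNA.

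A run of protein genes in the middle of the genome was close to empty, although its genes are transcribed on the same long RNA as their neighbours. The genes were mt-Co2 and mt-Co3, which encode core subunits of complex IV, mt-Atp8 and mt-Atp6 of the ATP synthase, and mt-Nd3 and mt-Nd4l of complex I. In the mRNA libraries mt-Co2 had 14, 6, 2 and 2 counts, mt-Atp6 had 9, 16, 15 and 1, mt-Co3 had 20, 21, 20 and 21, and mt-Nd4l had 6, 8, 0 and 0. The best counted of them, mt-Nd3, had 187, 126, 145 and 88. No count fell on mt-Atp8 in any of the 8 libraries, which allows up to 0.0855 CPM in the shallowest mRNA library.

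Per base, mt-Co2 stood at 0.00784%, mt-Atp6 at 0.0134%, mt-Co3 at 0.0234%, mt-Nd4l at 0.0105% and mt-Nd3 at 0.350% of mt-Co1 in the mRNA libraries. Total RNA showed the same gap at its lower depth: mt-Co2 and mt-Atp6 had 0 counts in all 4 libraries, mt-Co3 had 1 count in all, mt-Nd4l had 1, 1, 0 and 0, and mt-Nd3 had 3, 6, 4 and 1. The genes on either side, mt-Co1 and mt-Nd4, had 691791 and 80587 counts over the mRNA libraries.

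Of these 6 low genes, 5 have sequence that also occurs in annotated transcripts of other genes. Each member was cut into all its windows of 50 bases, and each window was looked up, on both strands, in the GENCODE M21 transcripts of other genes. Exact matches were found for 100% of the windows of mt-Co2, 99.9% of mt-Co3, 99.5% of mt-Atp6, 98.8% of mt-Nd4l and 98.0% of mt-Nd3. The share was 62.2% for mt-Nd4, 51.1% for mt-Co1, 8.19% for mt-Nd2, 7.61% for mt-Nd5 and 1.04% for mt-Rnr2, and 0% for mt-Nd1, mt-Nd6, mt-Cytb, mt-Rnr1 and every tRNA gene. The exception was mt-Atp8, which had 0 counts and shared 0% of its windows. Only annotated transcripts were searched, so a copy of any member in other genomic sequence would not be seen.

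The sources used here do not say how the authors' counting treated reads with several matches, and its part in the low values was not tested. The matches lay in 15 other genes, 6 of which had a row in the count table. The best counted of these were Gm13340, which shares windows with mt-Co1 and had 65, 90, 53 and 78 counts in the mRNA libraries, and Gm13341, which shares windows with mt-Co2 and had 16, 31, 14 and 16. Counts were not taken separately for windows found in no other transcript. With all counts of a gene assigned to them, mt-Co1 would stand at 6195 CPM per kb in mRNA libraries and 2872 in total RNA. On the same assumption, which was not tested, mt-Nd4 would stand at 1047 and 646 CPM per kb. Levels of the mitochondrial protein genes relative to each other are therefore uncertain, while a gene's ratio between libraries is taken over the same sequence.

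**Figure D3:**
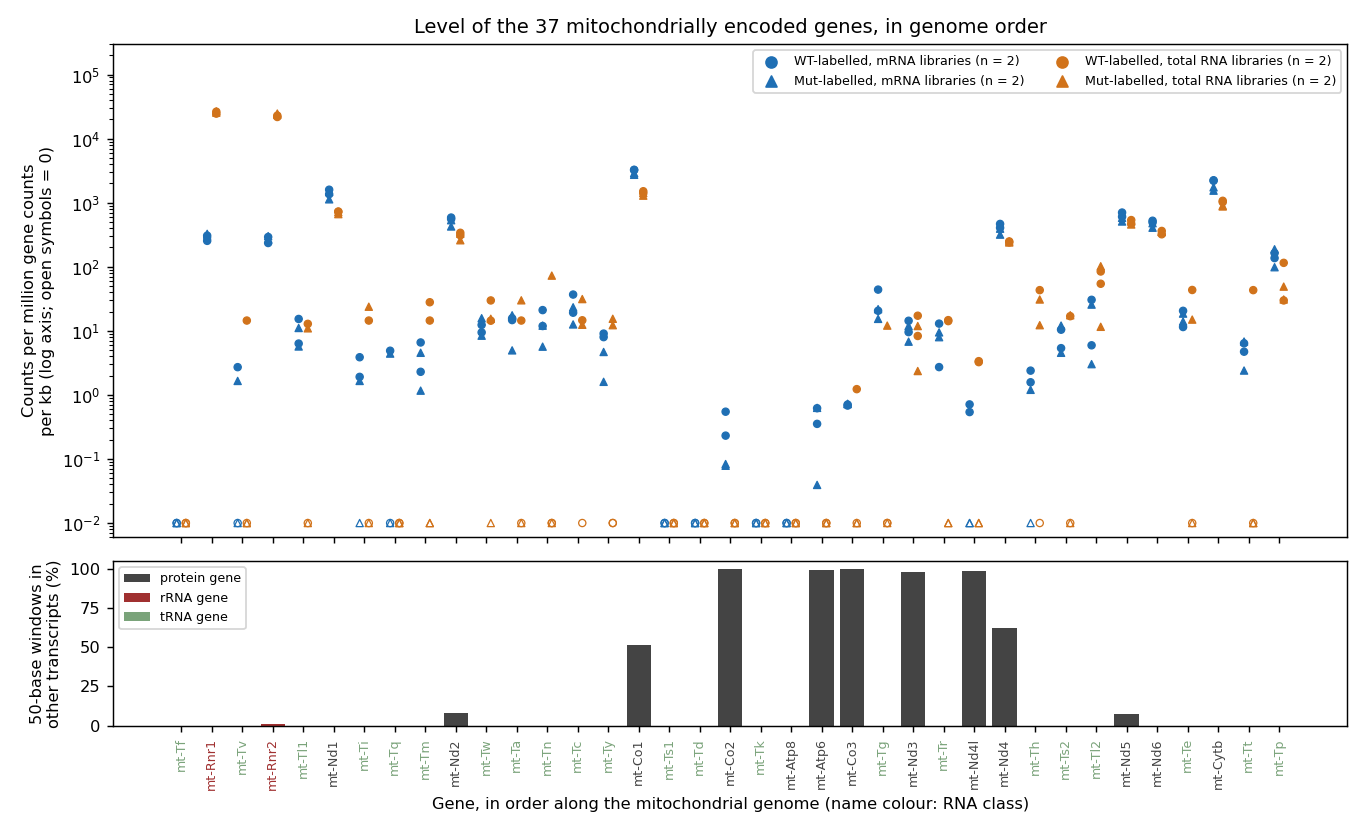
Top, level of each of the 37 genes in genome order, as CPM per kb of gene on a log axis, in mRNA (blue) and total RNA (orange) libraries, 1 point per library with WT as circles and Mut-labelled as triangles; open symbols are counts of 0. Bottom, percent of 50-base windows of each gene found in transcripts of other genes, which is 98.0 to 100% for 5 of the 6 low protein genes and 0% for mt-Atp8.

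The tRNA genes, which are shorter than the cDNA fragments aimed for, held few counts. Of the 22, 18 had a count in the mRNA libraries and 17 in the total RNA libraries, and their summed counts were 1059, 678, 851 and 522 and 24, 19, 24 and 12. The 4 without a count in the mRNA libraries were mt-Tf, the phenylalanine tRNA next to mt-Rnr1, and mt-Ts1, mt-Td and mt-Tk, the tRNAs for serine, aspartate and lysine between mt-Co1 and mt-Atp8. Within the run of low protein genes, mt-Tg for glycine (112, 53, 52 and 39) and mt-Tr for arginine (33, 7, 19 and 24) did have counts in the mRNA libraries.

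The best counted tRNA gene was mt-Tp, the light-strand gene for proline, with 409, 347, 441 and 246 counts in the mRNA libraries and 8, 2, 2 and 4 in total RNA. It is shown whole because it held more counts than any other tRNA gene.
mt-Tp: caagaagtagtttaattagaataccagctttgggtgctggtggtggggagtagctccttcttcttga
Its 67 bases do not end in CCA, the end to which amino acids are joined and which an enzyme adds after transcription. Of the 22 tRNA genes, 1 ended in these letters in the DNA. The other leading tRNA genes were mt-Tg with 256 counts over the mRNA libraries, mt-Tc for cysteine with 224, mt-Tl2 for leucine with 169 and mt-Te for glutamate with 164.

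Between the kinds of library 15 tRNA genes were tested and 0 were called by edgeR, 4 of them at an unadjusted p under 0.05, as were 31.2% of all genes. The log2 change was -1.26 for mt-Tp (edgeR adjusted p = 0.0771), 2.09 for mt-Tl2 (edgeR adjusted p = 0.136) and 4.31 for mt-Th, the histidine tRNA (edgeR adjusted p = 0.0594). With same-named libraries paired as a block, mt-Tp (edgeR adjusted p = 0.00979) and mt-Tl2 (edgeR adjusted p = 0.0114) were called, and DESeq2 called mt-Th (adjusted p = 0.0015). In total RNA these genes rested on 16, 18 and 6 counts. The other 12 tested were mt-Tl1, mt-Ti, mt-Tm, mt-Tw, mt-Ta, mt-Tn, mt-Tc, mt-Ty, mt-Tg, mt-Tr, mt-Ts2 and mt-Te, with log2 changes from -4.82 for mt-Tg to 2.72 for mt-Ti, which had 1 and 3 counts in total RNA.

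The WT and Mut-labelled samples were compared within each kind of library, which asks whether mitochondrial RNA differed with the Runx1 label. In the fits without a replicate block no mitochondrial gene was called in either kind. In the mRNA libraries edgeR tested 27 members and called 0, with 0 at an unadjusted p under 0.05 and 0 called by DESeq2, where edgeR called 3.64% of 17128 genes (1.75% higher, 1.89% lower) and 15.7% had an unadjusted p under 0.05. In total RNA edgeR tested 9 members and called 0, with 0 at an unadjusted p under 0.05 and 0 called by DESeq2, where edgeR called 4.23% of 10546 genes (2.55% higher, 1.68% lower) and 14.8% had an unadjusted p under 0.05. The smallest adjusted p among the protein and rRNA genes in either kind was that of mt-Cytb in the mRNA libraries.

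The protein genes were lower on average in the Mut-labelled mRNA libraries, without passing the test. The median log2 change, Mut-labelled over WT, was -0.22 over the 10 protein genes tested, against -0.01 over all genes tested. The levels of mt-Cytb in WT, 2510 ± 22.3 CPM (SD, n = 2), did not overlap those of the Mut-labelled libraries, 1897 ± 138 CPM, and the log2 change was -0.40 (SE 0.19, edgeR adjusted p = 0.416). The Mut-labelled libraries also lay below both WT libraries for mt-Nd2, mt-Co1, mt-Nd4, mt-Nd5, mt-Nd6 and the tyrosine tRNA gene mt-Ty. Such a gap was seen in 23.1% of all genes tested. The log2 changes were -0.17 for mt-Co1 (SE 0.22, edgeR adjusted p = 0.829), -0.26 for mt-Nd4 (SE 0.17, edgeR adjusted p = 0.591), -0.23 for mt-Nd5, -0.22 for mt-Nd2 and -0.16 for mt-Nd6.

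For mt-Nd1 the groups overlapped in the mRNA libraries, with a log2 change of -0.15, which was 0.021 without Mut-labelled 2. The rRNA genes had changes of the other sign, 0.21 for mt-Rnr1 (SE 0.15, edgeR adjusted p = 0.637) and 0.14 for mt-Rnr2 (SE 0.17, edgeR adjusted p = 0.828), which turned to -0.18 and -0.25 under ERCC scaling. Both Mut-labelled libraries lay above WT for mt-Rnr1 and for mt-Co3, as in 21.4% of all genes tested. The 15 tRNA genes tested were mt-Tl1, mt-Tq, mt-Tm, mt-Tw, mt-Ta, mt-Tn, mt-Tc, mt-Ty, mt-Tg, mt-Tr, mt-Ts2, mt-Tl2, mt-Te, mt-Tt and mt-Tp. Their log2 changes ran from -1.40 for mt-Ty to 0.19 for mt-Tr, with a median of -0.32, 4 above 0 and 11 below.

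In total RNA the 7 protein genes tested had a median log2 change of -0.04, against -0.00 over all genes tested. The level of mt-Cytb was again lower in both Mut-labelled libraries, at 1182 ± 35.0 CPM in WT and 1024 ± 3.33 CPM (SD, n = 2), with a log2 change of -0.21 (SE 0.15, edgeR adjusted p = 0.58). Of all genes tested, 21.4% showed such a gap downward and 22.5% upward. The level of mt-Rnr2 was higher in both Mut-labelled libraries, with a log2 change of 0.14 (SE 0.08, edgeR adjusted p = 0.454) that was -0.93 under ERCC scaling. The groups overlapped for mt-Rnr1 (0.07), mt-Nd2 (-0.11), mt-Co1 (-0.07), mt-Nd1 (-0.04), mt-Nd5 (-0.02), mt-Nd4 (0.03) and mt-Nd6 (0.07), of which mt-Rnr1, mt-Nd4 and mt-Nd6 also turned negative under ERCC scaling. ERCC scaling moved the median log2 change of all genes to -0.38 in the mRNA libraries and to -1.10 in total RNA.

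**Figure D4:**
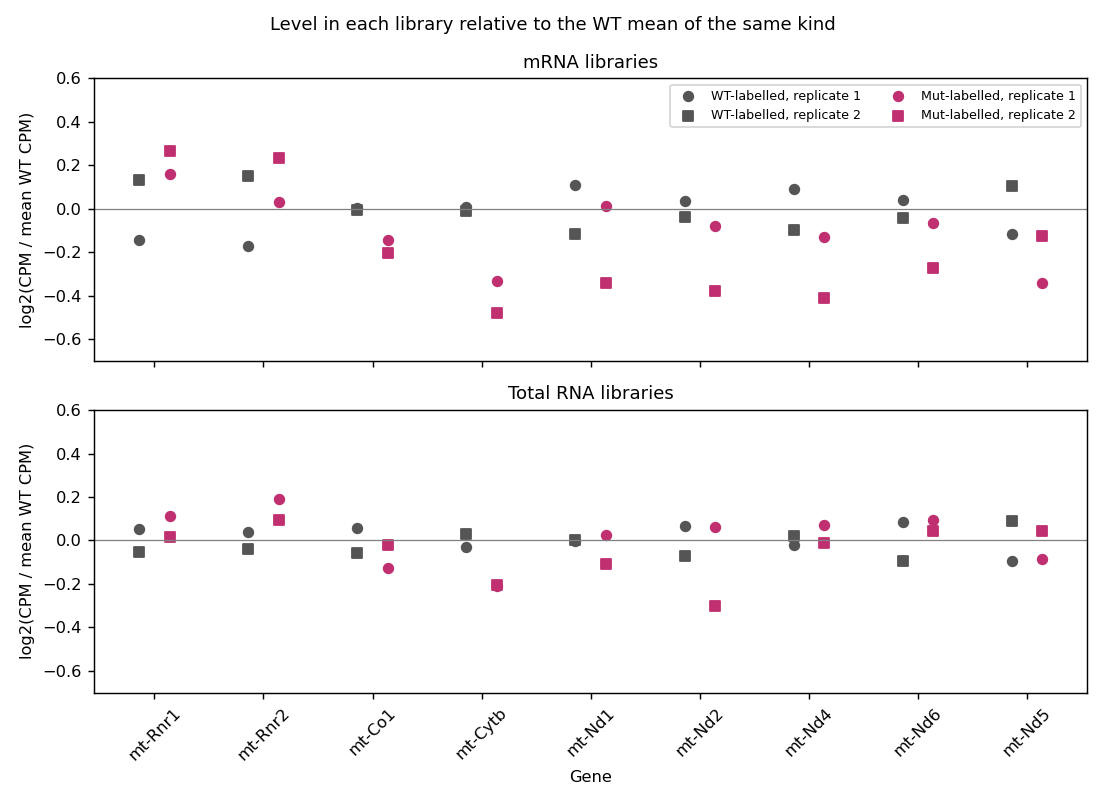
Level of both rRNA genes and 7 protein genes in each library, as the log2 ratio of its CPM to the mean of the 2 WT libraries of the same kind (top, mRNA; bottom, total RNA); grey points are WT and pink points Mut-labelled, circles replicate 1 and squares replicate 2. The Mut-labelled points of mt-Cytb lie below both WT points in both kinds, with edgeR adjusted p of 0.416 and 0.58.

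Summed over all members, the share of gene counts gave a log2 difference, Mut-labelled minus WT, of -0.24 in the mRNA libraries (exact permutation p = 0.33, two-sided) and 0.06 in total RNA (exact permutation p = 0.667, two-sided). The share of the protein genes gave -0.26 and -0.11, with an exact permutation p of 0.33 in each kind. The ratio of protein gene to rRNA gene counts gave -0.41 and -0.19, again with an exact permutation p of 0.33 in each. The smallest p that 2 against 2 libraries allow is 0.33. An interaction term over the 8 libraries tested whether the group difference depended on poly(A) selection. For it edgeR called 0 of 27 members, with 0 at an unadjusted p under 0.05 and 0 called by DESeq2. Of all 17416 genes edgeR called 0%, and 3.94% had an unadjusted p under 0.05.

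Some markers of other blood cells moved with the groups. The summed level of 7 megakaryocyte markers was 477, 411, 1790 and 1664 CPM in the mRNA libraries, with 3 of 7 called higher in the Mut-labelled libraries by edgeR. These were Itga2b (337, 318, 1345 and 1344 CPM), which made up most of the sum, Gp5 and Treml1, while the platelet genes Pf4 and Gp1bb had log2 changes of -1.20 and -1.05 that were not called. The 10 erythroid markers in the table summed to 1265, 992, 384 and 262 CPM, with 4 of 10 called lower. The 8 neutrophil markers summed to 34.3, 41.0, 450 and 118 CPM, with 1 of 8 called higher. The 4 T cell markers summed to 19.4, 20.9, 4.60 and 4.48 CPM. Most of the WT sum was Lck (18.3, 20.1, 1.94 and 2.19 CPM), which was called lower, while 2 of the 3 tested had log2 changes above 0. The 6 macrophage markers summed to 74.4, 102, 69.7 and 59.6 CPM, with H2-Aa called lower. Among them Csf1r went the other way (17.0, 13.5, 49.5 and 30.7 CPM) and was not called. The 5 B cell markers summed to 30.2, 45.9, 36.9 and 30.3 CPM, with overlapping groups. No listed marker in the table was at 0 in every library. The part of these cells in the mitochondrial values was not tested, and in bulk samples fewer cells of a type and less RNA per cell cannot be told apart.

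Among nuclear genes that work on mitochondrial DNA and RNA, no difference between the groups passed the test in the mRNA libraries when fitted without a replicate block. Of 76 such genes tested there, edgeR called 0, with 5 at an unadjusted p under 0.05 and 1 called by DESeq2, and their median log2 change was -0.07 against -0.01 for all genes. The log2 change was -0.07 for Tfam, which packages and transcribes mitochondrial DNA, -0.19 for the mitochondrial RNA polymerase Polrmt, -0.14 for the mRNA stability factor Lrpprc and 0.17 for the poly(A) polymerase Mtpap. The coactivator gene Pprc1, next to Lars2 the most abundant of the list, gave -0.15. The 17 mitochondrial tRNA synthetases had a median of -0.11.

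In total RNA 1 of 68 was called, Gabpb1, a subunit of a transcription factor for nuclear genes of mitochondrial function. Its levels were 59.2, 47.2, 89.8 and 93.7 CPM, with a log2 change of 0.78 (SE 0.22, edgeR adjusted p = 0.0491). The change was -0.34 (edgeR adjusted p = 0.598) under ERCC scaling, and the call was lost under DESeq2 (adjusted p = 0.473), without WT 2 (edgeR adjusted p = 0.178), without Mut-labelled 1 (0.0856) and without Mut-labelled 2 (0.193). In the mRNA libraries Gabpb1 had a log2 change of 0.13 (edgeR adjusted p = 0.727).

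Nuclear genes for subunits of the same 4 complexes were mostly below WT in the Mut-labelled mRNA libraries, by small amounts that with 1 exception did not pass the test. Of 74 tested in the mRNA libraries 1 was called, and 64 had a log2 change below 0, with a median of -0.14 against -0.01 for all genes. The most abundant were Atp5b and Atp5a1, the catalytic and partner subunits of the ATP synthase, with log2 changes of -0.11 and 0.03. The gene called was Cox6b2, an isoform of a complex IV subunit known from testis, at 37.8, 39.9, 10.8 and 10.4 CPM, with a log2 change of -1.87 (SE 0.18, edgeR adjusted p = 0.00856). Its log2 change was -2.27 under ERCC scaling, where the adjusted p was 0.859. In total RNA edgeR called 0 of 67, with 10 at an unadjusted p under 0.05 and 0 called by DESeq2, and the median was -0.23. There Cox6b2 had a log2 change of -1.66 (SE 0.47, edgeR adjusted p = 0.0543).

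Between the kinds of library, the gene of the nuclear lists that stood out was Lars2, the mitochondrial leucyl-tRNA synthetase. Its levels were 1759, 2562, 2017 and 2598 CPM in the mRNA libraries and 19762, 21816, 23912 and 19490 CPM in total RNA, with no overlap. The log2 change was 3.42 (SE 0.18, edgeR adjusted p = 2.57e-07). Lars2 shared 0 windows of 50 bases with the mitochondrial genes, and up to 19 with a single other gene (Gm47414). Its mean in the mRNA libraries was 2234 CPM, against 146.5 CPM for Pprc1, the next of its list. Whether all these counts came from Lars2 mRNA was not tested. As 15.1% of all genes differed between the kinds, the nuclear lists are given as counts only. Of the 76 genes that work on mitochondrial DNA and RNA, 2 were called higher in total RNA (Lars2 and Ppargc1b) and 6 lower (Pnpt1, Gabpa, Hars2, Mgme1, Rars2 and Trnt1). The subunit gene Cox7a1 stood at 4.77, 1.97, 4.23 and 4.93 CPM in total RNA, where a floor of 3 counts was 2.46 to 3.10 CPM. Of the 74 nuclear subunit genes, Cox7a1 was called higher, on these few counts, and 11 were called lower. Among the latter were Ndufs1, Ndufa5, Ndufa10, Ndufb5, Ndufb8 and Ndufc2 of complex I, Uqcrc2 of complex III, Cox7a2l, counted here with complex IV, and Atp5a1 and Atp5c1 of the ATP synthase. Without any one sample, 2 to 3 of the 76 genes and 0 to 3 of the 74 were called, and under ERCC scaling 1 and 0. With same-named libraries paired as a block, 24 and 25 were called. Lars2 was called under each of these settings.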

How the data were processed

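The deposited table holds raw counts, whole numbers of reads per gene that the authors had not normalised, with 1 column for each of the 8 libraries. The submitters' processing notes name mm9, TopHat, featureCounts and edgeR. The sources used here do not give versions, the annotation release, strand use or the treatment of multiply mapped reads. The table had 38086 entries, of which 92 ERCC and 3 rRNA entries were left out of library totals and gene tests. Symbols were looked up in GENCODE M21, which matched 32919 of 37991 gene identifiers. Gene sequences came from GENCODE M21 transcripts (GRCm38), and no coordinates are given because the builds differ.

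Tests used edgeR 4.0.16 in R 4.3.3 with TMM scaling, the tool's filter on low counts, its two-sided quasi-likelihood test and Benjamini-Hochberg adjustment over all genes tested, called at 0.05. DESeq2 1.42.0, ERCC scaling, upper quartile scaling, no filter, library totals without the mitochondrial genes, a replicate block and leaving out each sample were alternatives. Shares were compared with exact permutation tests. The scripts were tested on simulated data.

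Same-named libraries of both kinds were read as 1 sorted sample, from their titles. The replicate 1 minus replicate 2 differences of 9223 genes correlated between kinds at 0.268 in WT and 0.372 in Mut-labelled samples, and at 0.254 and 0.250 between kinds across labels.

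Named were all protein and rRNA genes, the tRNA genes that passed the filter on low counts and the 5 with most counts, and of the nuclear lists the genes called and the 2 most abundant. Tfam, Polrmt, Lrpprc, Mtpap and the counted genes that share windows were added after their values were seen. The members and lists were chosen with earlier results of these data known. One gene of the nuclear lists is not reported here by name.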

Additional observations from a re-analysis of the deposited data

How the results depend on the processing

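Both rRNA genes were called higher in total RNA under every alternative run. The number of members called higher there was 2, but 3 under DESeq2 and 3 with same-named libraries paired as a block. The number called lower was 5, but 0 under ERCC scaling, 6 without the filter on low counts and 7 with that pairing. It was smaller in each fit without 1 sample. With the replicate number as a block, 2 members were called between WT and Mut-labelled mRNA libraries, mt-Nd4 (-0.27, edgeR adjusted p = 0.0304) and mt-Cytb (-0.41, edgeR adjusted p = 0.00286), and 1 in total RNA, mt-Rnr2 (0.14, edgeR adjusted p = 0.00237), each against 0 without it. In mRNA libraries the block also called 8 of the nuclear genes that work on mitochondrial DNA and RNA, against 0, and 4 of the nuclear subunit genes, against 1. Over all genes, calls rose with the block from 624 to 2870 in mRNA libraries, from 446 to 870 in total RNA, from 2634 to 4895 between the kinds and from 0 to 111 for the interaction. ERCC scaling gave 16 higher and 154 lower in mRNA libraries, 13 and 360 in total RNA and 212 and 33 between the kinds. DESeq2 called 1615, 203 and 3256 genes in these comparisons and 18 for the interaction, and fits without 1 sample each called 492 to 1292 between the kinds. Replicate differences of WT and Mut-labelled samples correlated at 0.653 in mRNA and 0.150 in total RNA libraries, but the labels do not tie a number to a batch and there are only 2 pairs.

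The log2 difference in mitochondrial share was -0.61 per ERCC count in the mRNA libraries. In total RNA it was 0.16 over all counts, -1.02 per ERCC count and -0.11 without the rRNA genes. Without single libraries it ran from -0.30 to -0.18 and from 0.02 to 0.10. Changes that turned sign, none of them past the threshold under the setting named (Gabpb1 was past it without ERCC scaling), were these. Under ERCC scaling, mRNA libraries gave -0.18 for mt-Rnr1 and -0.25 for mt-Rnr2, and total RNA gave -1.01 for mt-Rnr1, -0.93 for mt-Rnr2, -1.04 for mt-Nd4, -1.03 for mt-Nd6 and -0.34 for Gabpb1. The interaction under ERCC scaling was -0.68 for mt-Rnr2, -0.55 for mt-Nd1, -0.52 for mt-Nd2, -0.62 for mt-Co1, -0.38 for mt-Nd4, -0.51 for mt-Nd5, -0.46 for mt-Nd6 and -0.48 for mt-Cytb. Upper quartile scaling gave -0.00016 for mt-Nd4 in total RNA. Over fits without 1 sample each, the change in mRNA libraries ran from -0.017 (without WT 1) to 0.32 for mt-Rnr2 and from -0.34 to 0.021 (without Mut-labelled 2) for mt-Nd1. In total RNA it ran from -0.099 to 0.024 for mt-Nd1 and from -0.29 to 0.061 for mt-Nd2 (both highest without Mut-labelled 2), from -0.11 to 0.079 (without WT 2) for mt-Nd5 and from -0.012 (without WT 2) to 0.16 for mt-Nd6. The interaction ran from -0.39 to 0.088 (without WT 1) for mt-Rnr1, from -0.24 (without WT 2) to 0.25 for mt-Rnr2, and from -0.026 to 0.28 for mt-Nd1 and -0.023 to 0.23 for mt-Co1 (both lowest without Mut-labelled 2). The cause was not tested. Depth limits the total RNA libraries, in which 9 of 37 members could be tested between the groups.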
